A study of Danio rerio with 6 samples.

Results

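The neural crest is a population of cells that forms at the border between neural plate and epidermis, loses its epithelial contacts, migrates and gives rise to pigment cells, peripheral neurons and glia, and much of the head skeleton. A network of transcription factors sets it up: AP-2 and Pax/Zic factors act at the border, Foxd3 and SoxE factors specify the crest, and Snail repressors switch off epithelial adhesion genes. The genes described here are 9 regulators and markers of that network, taken by symbol: the AP-2 genes tfap2a and tfap2c, the forkhead gene foxd3, the SoxE genes sox9a, sox9b and sox10, the Snail genes snai1b and snai2, and the zebrafish crest marker crestin. All 9 were among the 30677 symbols in the counted transcripts, and all 9 passed the filter on low counts that left 19129 symbols for testing.

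The cells came from wild-type zebrafish (Danio rerio) embryos at 14 hours post fertilisation, whose trunks were dissociated after brain and tail had been cut away, and were collected by flow sorting for GFP. There were 3 sorts of 2 libraries each, from the lines TgBAC(nkx2.2a:memGFP), TgBAC(olig2:GFP) and TgBAC(dbx1b:GFP). In each line a bacterial artificial chromosome carries GFP under the regulatory sequence of the named gene. The reporters mark the p3, motor neuron progenitor and p0 domains of the ventral neural tube, none of which is a crest territory. Only the nkx2.2a line carries membrane GFP. A difference between sorts therefore cannot be told apart from one between lines or reporters. The labels do not say that the 2 libraries of a sort came from separate pools of embryos, so all p-values measure the spread between these libraries, which may be technical.

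The libraries held 3254516 to 6933417 fragments mapped to transcripts. Levels are in CPM (counts-per-million, relative to the TMM-scaled total of the genes tested). At these depths 1 fragment equals 0.141 to 0.304 CPM, and the limit that 0 counts allow was 0.423 to 0.913 CPM, counting error only. The driver gene of each line was highest in its own sort. Its level was 495 and 364 CPM for nkx2.2a in nkx2.2a cells, 220 and 125 CPM for olig2 in olig2 cells, and 183 and 216 CPM for dbx1b in dbx1b cells. A list of 17 neural progenitor genes (SoxB1, Pax6, Notch and cadherin genes among them) summed to 3690 to 4002 CPM in nkx2.2a cells, 3092 to 4102 CPM in olig2 cells and 4029 to 4367 CPM in dbx1b cells. Single genes of it differed between sorts. The gene pax6a had 32.7 and 27.5, 132 and 156, and 163 and 142 CPM in the same order. The gene sox1b had 92.5 and 101, 19.2 and 11.1, and 2.34 and 7.89 CPM. Brain markers were present although the brain had been cut away: 11 of 15 listed symbols summed to 378 and 470 CPM in nkx2.2a cells, 176 and 124 CPM in olig2 cells, and 301 and 332 CPM in dbx1b cells. Much of the sum was egr2b, at 151 and 190, 56.9 and 66.8, and 209 and 210 CPM in the same order. The gene six3b had 43.3 and 72.6, 4.56 and 3.08, and 1.80 and 4.37 CPM. The sums thus do not describe each gene of the list. Libraries of the same sort differed widely. Among 12507 tested genes with a mean of 5 CPM or more, the higher library stood at a median of 1.89 times the lower in nkx2.2a cells, 1.94 times in olig2 cells and 1.50 times in dbx1b cells.

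Fragments of all 9 crest regulators were counted in all 6 libraries, and the sorts differed most in tfap2a and foxd3. In nkx2.2a library 2, snai1b had only 1 fragment (0.302 CPM), below the limit of 0.907 CPM that 0 counts allow there. The gene tfap2a averaged 51.0 CPM in nkx2.2a cells and 71.1 CPM in olig2 cells, against 15.6 CPM in dbx1b cells. The gene foxd3 was highest where tfap2a was lowest, with 10.9 CPM in nkx2.2a cells and 2.11 CPM in olig2 cells, against 21.8 CPM in dbx1b cells. The marker crestin averaged 80.7 CPM in nkx2.2a cells and 89.1 CPM in olig2 cells, against 73.8 CPM in dbx1b cells. None of the 9 genes passed edgeR's quasi-likelihood test in any of the 3 comparisons after Benjamini-Hochberg adjustment over all 19129 genes (lowest adjusted p = 0.432, for tfap2a in olig2 over dbx1b cells). In this bulk RNA, fewer cells of a type and less RNA per cell cannot be told apart.

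**Figure D1:**
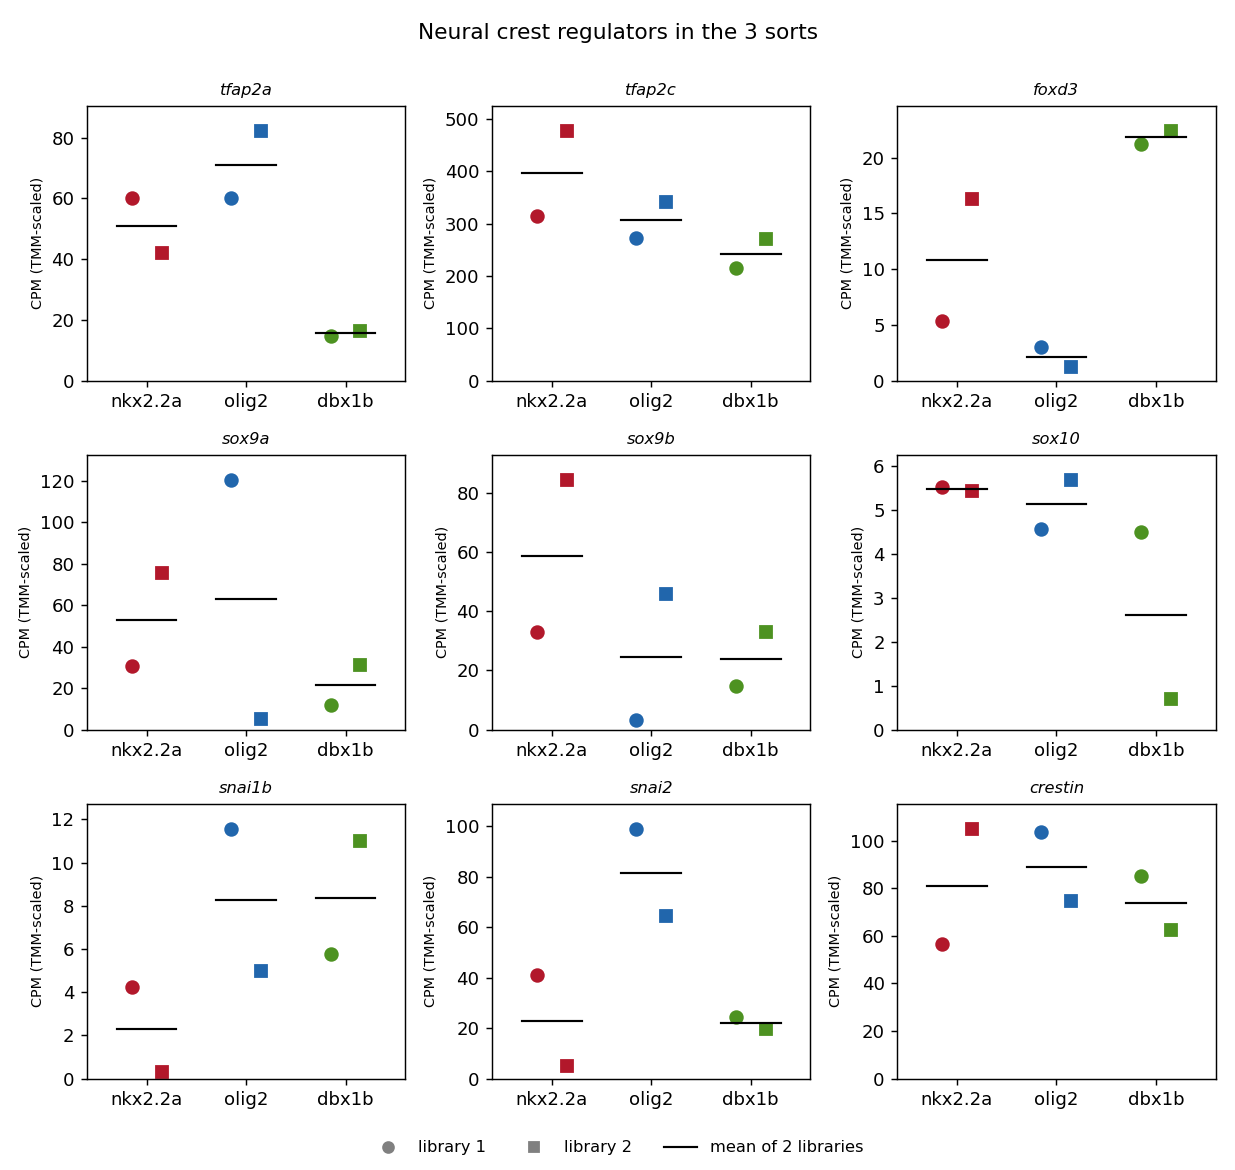
TMM-scaled CPM (vertical axes, starting at 0) of the 9 genes in nkx2.2a, olig2 and dbx1b sorts; circles are library 1, squares library 2 and bars the mean of both. Both dbx1b libraries lie below the other 4 for tfap2a and above them for foxd3, while sox9a and sox9b take opposite orders in the 2 olig2 libraries.

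Per length of transcript, the 9 genes spanned a wide range. In FPKM (fragments per kilobase of transcript, relative to all mapped fragments and without TMM scaling), averaged over the 6 libraries, tfap2c led at 59.5, above 93.8% of the genes tested. It was followed by sox9a at 22.7, crestin at 17.4, sox9b at 16.5, tfap2a at 15.8 and snai2 at 13.3 FPKM. The lowest were foxd3 at 5.68, snai1b at 3.90 and sox10 at 1.27 FPKM, and sox10 stood above 24.0% of the genes tested. These low levels rested on few fragments, from 5 to 159 per library for foxd3, 1 to 78 for snai1b and 5 to 35 for sox10.

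Across the network, few of the 9 genes passed a test by either tool. In nkx2.2a over olig2 cells, edgeR called 0 of 9 at adjusted p under 0.05 (0% of all genes tested) and 0 of 9 had an unadjusted p under 0.05 (8.75% of all genes). DESeq2 called 0 of 9 there (2.97% of all genes). In nkx2.2a over dbx1b cells, edgeR called 0 of 9 (0.00523% of all genes, which is 1 gene, nkx2.2a itself), 1 of 9 had an unadjusted p under 0.05 (6.27%), and DESeq2 called 0 of 9 (1.98%). In olig2 over dbx1b cells, edgeR called 0 of 9 (0% of all genes), 2 of 9 had an unadjusted p under 0.05 (9.53%), and DESeq2 called 2 of 9 (3.64%), tfap2a and foxd3. The libraries of the sorts compared did not overlap for 3 of 9 genes in nkx2.2a over olig2 cells (35.8% of all genes), 5 of 9 in nkx2.2a over dbx1b cells (40.1%) and 5 of 9 in olig2 over dbx1b cells (43.7%). No member had both nkx2.2a libraries above the other 4 (8.16% of all genes). The median log2 fold change of the 9 genes was -0.14, 0.71 and 0.34 in these 3 comparisons, beside 0.05, -0.00 and -0.05 over all genes tested.

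**Figure D2:**
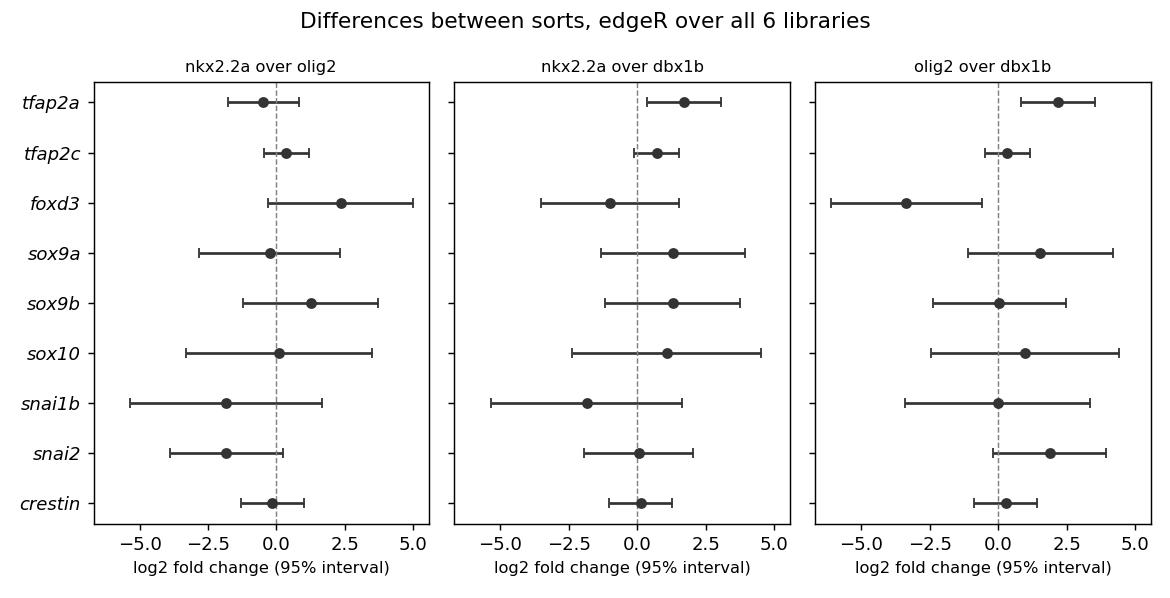
Log2 fold changes (horizontal axes) of the 9 genes in the 3 comparisons, each panel titled with its own, with 95% intervals from edgeR's fit over all 6 libraries; the dashed line marks no difference. The intervals of tfap2a in both comparisons with dbx1b cells, and of foxd3 in olig2 over dbx1b cells, lie clear of 0 before adjustment over all genes.

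The AP-2 transcription factors tfap2a and tfap2c act together at the start of crest formation in zebrafish, and both are also used in the surface ectoderm. The gene tfap2a was the member with the clearest difference. It had 60.0 and 42.0 CPM in nkx2.2a cells (380 and 139 fragments), 59.9 and 82.2 CPM in olig2 cells (197 and 347 fragments), and 14.8 and 16.5 CPM in dbx1b cells (82 and 117 fragments). Both dbx1b libraries lay below the other 4, which held for 7.35% of all genes tested, and the nkx2.2a and olig2 libraries overlapped. The log2 fold change was 2.18 ± 0.60 (SE) in olig2 over dbx1b cells, with a 95% interval of 0.82 to 3.55 (edgeR unadjusted p = 0.00537, adjusted p = 0.432). It was 1.71 ± 0.60 in nkx2.2a over dbx1b cells, with an interval of 0.37 to 3.05 (edgeR unadjusted p = 0.0181, adjusted p = 0.743). DESeq2 called the olig2 over dbx1b difference (log2 fold change 2.25, adjusted p = 0.00363).

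Transcripts of tfap2a were counted on 3 transcript models of 2721, 2920 and 3070 bases. The longest model took 58.7% and 32.4% of the tfap2a fragments in nkx2.2a cells, 36.5% and 45.5% in olig2 cells, and 61.0% and 59.8% in dbx1b cells. The exact 95% binomial intervals, which cover counting error only, ran from 53.6% to 63.7% and from 24.7% to 40.8% in nkx2.2a cells, from 29.8% to 43.7% and from 40.2% to 50.9% in olig2 cells, and from 49.6% to 71.6% and from 50.4% to 68.8% in dbx1b cells. The dbx1b shares were close to each other, and the 2 nkx2.2a libraries differed from each other beyond their intervals. The interval of olig2 library 2 met those of both dbx1b libraries. The sources used here do not say how reads shared by these models were assigned.

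The gene tfap2c was the most abundant of the 9 per length of transcript and varied little. It had 315 and 478 CPM in nkx2.2a cells, 272 and 342 CPM in olig2 cells, and 216 and 270 CPM in dbx1b cells. Both dbx1b libraries again lay below the other 4, by a narrow margin of 272 CPM in olig2 library 1 against 270 CPM in dbx1b library 2 at the closest. The log2 fold change was 0.71 ± 0.36 (SE) in nkx2.2a over dbx1b cells (edgeR adjusted p = 0.840), with a 95% interval of -0.11 to 1.52. In olig2 over dbx1b cells it was 0.34 ± 0.36 (edgeR adjusted p = 0.813), with an interval of -0.47 to 1.15. Of 12507 genes with a mean of 5 CPM or more, 13.9% had a smaller ratio between their highest and lowest library than tfap2c (2.22).

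Epidermal markers ran in part alongside tfap2a. Of 22 listed symbols of surface ectoderm and periderm, 20 were in the files. Their summed level was 2956 and 3360 CPM in nkx2.2a cells, 1945 and 1753 CPM in olig2 cells, and 1566 and 1067 CPM in dbx1b cells. The epithelial adhesion gene epcam had 187 and 187 CPM in nkx2.2a cells, 68.8 and 92.0 CPM in olig2 cells, and 25.8 and 15.8 CPM in dbx1b cells. The simple-epithelium keratin gene krt8 had 420 and 600 CPM in nkx2.2a cells, 138 and 130 CPM in olig2 cells, and 121 and 87.7 CPM in dbx1b cells. The list sum was thus lowest in dbx1b cells, as tfap2a was, but was highest in nkx2.2a cells, where tfap2a overlapped with olig2 cells. Some genes of the list were lowest in olig2 cells instead. The cadherin gene cdh1 had 231 and 288 CPM in nkx2.2a cells, 71.2 and 28.0 CPM in olig2 cells, and 118 and 127 CPM in dbx1b cells. The claudin gene cldnb had 43.4 and 63.5, 0.913 and 0.948, and 6.66 and 5.50 CPM in the same order. Among defining markers, tp63 had 129 and 158, 77.0 and 135, and 14.9 and 65.3 CPM in the same order. Another, agr1, was at 0 in 4 of the 6 libraries. Of 19 epidermal genes tested, edgeR called 0 over all genes in each comparison. At an unadjusted p under 0.05, 6 were higher and 0 lower in nkx2.2a over olig2 cells (6.12% and 2.62% of all genes), 1 and 2 in olig2 over dbx1b cells (3.70% and 5.83%), and 7 and 0 in nkx2.2a over dbx1b cells (3.61% and 2.67%). DESeq2 called 5 and 0 (2.97% of all genes in either direction), 1 and 1 (3.64%), and 5 and 0 (1.98%) in the same comparisons. The median log2 fold change was 0.64 in nkx2.2a over olig2 cells, 0.60 in olig2 over dbx1b cells and 1.72 in nkx2.2a over dbx1b cells. All 19 had a positive fold change in nkx2.2a over dbx1b cells. The part of epidermal cells in the tfap2a level was not tested.

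The forkhead repressor gene foxd3 marks premigratory crest, and in zebrafish it is also active in somites. It had 5.37 and 16.3 CPM in nkx2.2a cells (34 and 54 fragments), 3.04 and 1.19 CPM in olig2 cells (10 and 5 fragments), and 21.3 and 22.4 CPM in dbx1b cells (118 and 159 fragments). The 3 sorts did not overlap: both dbx1b libraries were above the other 4, as for 10.0% of all genes tested, and both olig2 libraries were below the other 4, as for 11.5%. The dbx1b libraries were close to each other, and the nkx2.2a libraries lay 3.04-fold apart. The log2 fold change was -3.37 ± 1.22 (SE) in olig2 over dbx1b cells, with a 95% interval of -6.12 to -0.61 (edgeR unadjusted p = 0.0219, adjusted p = 0.491). It was called by DESeq2 (-3.32, adjusted p = 0.0434). The nkx2.2a over olig2 value was 2.36 ± 1.18 (edgeR adjusted p = 0.602) and the nkx2.2a over dbx1b value -1.01 ± 1.12 (edgeR adjusted p = 0.964). The nkx2.2a over dbx1b value moved to -2.03 when nkx2.2a library 2 was left out, and to -0.41 when library 1 was.

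The summed markers of paraxial mesoderm were highest in dbx1b cells, as foxd3 was. Between nkx2.2a and dbx1b cells that order depended on the gene tbx6, and single genes of the list were mixed. Of 24 listed sclerotome and somite symbols, 20 were in the files, and their summed level was 631 and 1257 CPM in nkx2.2a cells, 322 and 385 CPM in olig2 cells, and 1637 and 1336 CPM in dbx1b cells. Much of the dbx1b sum was the T-box gene tbx6. It had 42.2 and 237 CPM in nkx2.2a cells, 116 and 63.8 CPM in olig2 cells, and 634 and 672 CPM in dbx1b cells. Without tbx6 alone, the nkx2.2a and dbx1b sums would overlap. The presomitic transcription factor gene msgn1 had 18.3 and 12.1 CPM in nkx2.2a cells, 11.3 and 11.6 CPM in olig2 cells, and 271 and 152 CPM in dbx1b cells. The sclerotome gene pax1a had 86.2 and 213 CPM in nkx2.2a cells, 0 and 0.474 CPM in olig2 cells, and 0.54 and 0 CPM in dbx1b cells. Of 18 tested, edgeR called 0 over all genes in any comparison. In olig2 over dbx1b cells the libraries did not overlap for 0 higher and 11 lower genes (18.3% and 25.4% of all genes). The counts were 5 and 9 in nkx2.2a over dbx1b cells (19.1% and 21.0%), and 5 and 1 in nkx2.2a over olig2 cells (20.0% and 15.7%). The sum in nkx2.2a cells rested on pax1a and the cartilage and notochord collagen gene col2a1a. Without those 2 genes, chosen after their values were seen, the list summed to 248 and 513 CPM in nkx2.2a cells, 251 and 264 CPM in olig2 cells, and 1406 and 1181 CPM in dbx1b cells, so that nkx2.2a library 1 no longer stood above olig2 cells. At an unadjusted p under 0.05, 4 were higher and 0 lower in nkx2.2a over olig2 cells (6.12% and 2.62% of all genes), 0 and 6 in olig2 over dbx1b cells (3.70% and 5.83%), and 3 and 4 in nkx2.2a over dbx1b cells (3.61% and 2.67%). DESeq2 called 2 and 0 (2.97% of all genes in either direction), 0 and 6 (3.64%), and 1 and 2 (1.98%). The list medians were 1.04, -1.18 and -1.01 in that order. Between 0 and 8 of the 20 symbols were at 0 in a library, the highest number being in olig2 library 1. Of the placode list, which includes otic markers, all 14 symbols were in the files, and they summed to 1007 and 1213 CPM in nkx2.2a cells, 951 and 691 CPM in olig2 cells, and 1770 and 1490 CPM in dbx1b cells. The dbx1b sum was mostly the otolith gene stm, at 1422 and 1086 CPM. Without stm, chosen after its values were seen, the list summed to 683 and 967 CPM in nkx2.2a cells, 805 and 583 CPM in olig2 cells, and 348 and 404 CPM in dbx1b cells. Much of the remaining sum in nkx2.2a and olig2 cells was the gene oc90. It had 456 and 522 CPM in nkx2.2a cells, 693 and 319 CPM in olig2 cells, and 113 and 144 CPM in dbx1b cells. The order of these sums thus depended on single genes. The median log2 fold change of the 12 placode genes tested was 0.96 in nkx2.2a over olig2 cells, 0.45 in nkx2.2a over dbx1b cells and -0.68 in olig2 over dbx1b cells. At an edgeR unadjusted p under 0.05, 4 of these were higher and 0 lower in nkx2.2a over olig2 cells (6.12% and 2.62% of all genes). The counts were 2 and 1 in nkx2.2a over dbx1b cells (3.61% and 2.67%), and 1 and 3 in olig2 over dbx1b cells (3.70% and 5.83%). The part of mesoderm or placode in the foxd3 level was not tested.

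**Figure D3:**
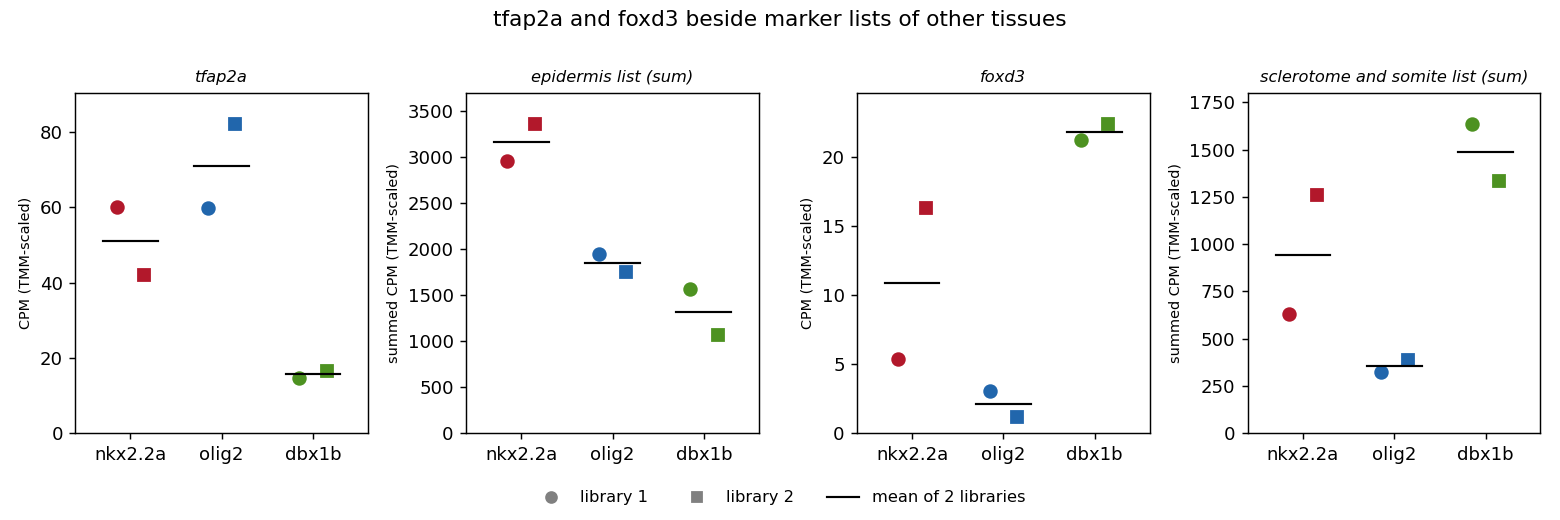
TMM-scaled CPM (vertical axes, starting at 0) of tfap2a and foxd3, and summed CPM of the epidermis and of the sclerotome and somite lists, in nkx2.2a, olig2 and dbx1b sorts; circles are library 1, squares library 2 and bars the mean of both. The dbx1b libraries are lowest for tfap2a and the epidermis list and highest for foxd3 and the somite list.

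The summed level of border genes upstream of foxd3 gave a similar but overlapping picture, while single genes were mixed. The neural plate border list had 17 of 22 symbols in the files, and its summed level was 477 and 598 CPM in nkx2.2a cells, 392 and 369 CPM in olig2 cells, and 692 and 548 CPM in dbx1b cells. The paired-box gene pax3a, which acts at the border and in dorsal neural tube, had 30.8 and 44.5 CPM in nkx2.2a cells, 8.52 and 18.7 CPM in olig2 cells, and 95.3 and 62.0 CPM in dbx1b cells. Its log2 fold change in olig2 over dbx1b cells was -2.53 ± 0.69 (SE, edgeR unadjusted p = 0.00508), and edgeR called 0 of the 16 border genes tested over all genes, against 1 by DESeq2 (3.64% of all genes). In that comparison 0 of 16 had an unadjusted p under 0.05 and a higher level (3.70% of all genes) and 3 of 16 had a lower level (5.83% of all genes), and the list median was -0.34 beside -0.05 over all genes. In nkx2.2a over dbx1b cells, 2 of 16 were higher at that threshold (3.61% of all genes) and 0 lower (2.67%). The list median there was -0.56. In nkx2.2a over olig2 cells, 0 were higher (6.12%) and 0 lower (2.62%), and the median was 0.57. The homeobox gene dlx5a, of border and placode, had 6.47 and 21.2 CPM in nkx2.2a cells, 0.304 and 1.42 CPM in olig2 cells, and 0 and 0.564 CPM in dbx1b cells.

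SoxE factors follow foxd3 in crest specification. Zebrafish carry 2 copies of Sox9: sox9b is used in crest and sox9a in cartilage, and both also act in other tissues. The copies tracked each other in the nkx2.2a and dbx1b libraries and went opposite ways in the olig2 libraries. The gene sox9a had 30.5 and 75.6 CPM in nkx2.2a cells, 120 and 5.21 CPM in olig2 cells, and 11.9 and 31.3 CPM in dbx1b cells. The gene sox9b had 32.8 and 84.4 CPM in nkx2.2a cells, 3.35 and 45.7 CPM in olig2 cells, and 14.6 and 33.1 CPM in dbx1b cells. The highest and the lowest of the 6 sox9a values were thus both from olig2 cells.

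Per length of transcript, the 2 copies were nearly equal in 4 libraries. The level of sox9a over that of sox9b, both in FPKM, was 0.986 and 0.952 in nkx2.2a cells, 38.3 and 0.121 in olig2 cells, and 0.866 and 1.00 in dbx1b cells. Of all sox9a and sox9b fragments, sox9a took 48.1% and 47.3% in nkx2.2a cells (401 and 529 fragments in all), 97.3% and 10.2% in olig2 cells (407 and 215), and 44.9% and 48.6% in dbx1b cells (147 and 457). The exact 95% binomial interval was 95.2% to 98.6% in olig2 library 1 and 6.52% to 15.1% in olig2 library 2. The intervals of the other 4 libraries all lay between 36.7% and 53.3%. Their summed level was 63.3 and 160 CPM in nkx2.2a cells, 124 and 51.0 CPM in olig2 cells, and 26.5 and 64.4 CPM in dbx1b cells, so the split of the olig2 libraries concerned the balance of the copies more than their sum.

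The 2 olig2 libraries stood 23.1-fold apart for sox9a and 13.7-fold apart for sox9b, where 91.3% and 88.9% of genes with a mean of 5 CPM or more had a smaller ratio. Of the marker lists, that of notochord and floor plate summed to 566 and 507 CPM in olig2 libraries 1 and 2, that of sclerotome and somite to 322 and 385 CPM, and that of blood and endothelium to 109 and 247 CPM. No sox9a or sox9b difference between sorts could be separated from this spread. The nkx2.2a over olig2 log2 fold change of sox9a was -0.25 ± 1.15 (SE, edgeR adjusted p = 0.977), and it became 3.33 without olig2 library 1. In olig2 over dbx1b cells it was 1.54 ± 1.17 (edgeR adjusted p = 0.716), and -2.06 without olig2 library 1. For sox9b the olig2 over dbx1b value was 0.04 ± 1.07 (edgeR adjusted p = 0.997), and -2.86 without olig2 library 2. The nkx2.2a over dbx1b value was 1.29 for both copies (SE 1.17 for sox9a and 1.09 for sox9b), with overlapping libraries and edgeR adjusted p = 0.938 and 0.933.

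The third SoxE gene, sox10, needed for the pigment, neural and glial lineages of the crest, was scarce. It had 5.53 and 5.44 CPM in nkx2.2a cells (35 and 18 fragments), 4.56 and 5.69 CPM in olig2 cells (15 and 24 fragments), and 4.50 and 0.705 CPM in dbx1b cells (25 and 5 fragments). The values were alike in 5 libraries and lowest in dbx1b library 2. The 95% interval of its log2 fold change in nkx2.2a over dbx1b cells, -2.37 to 4.52, shows how little could be resolved with these libraries (edgeR adjusted p = 0.980). The dbx1b libraries stood 6.39-fold apart, where 94.8% of genes with a mean of 5 CPM or more had a smaller ratio. Another SoxE gene, sox8a, had 18.5 and 25.4 CPM in nkx2.2a cells, 17.0 and 14.0 CPM in olig2 cells, and 5.58 and 13.0 CPM in dbx1b cells.

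Snail factors repress epithelial adhesion genes when crest cells leave the neural tube. The gene snai2 was highest in olig2 cells. It had 40.9 and 4.84 CPM in nkx2.2a cells (259 and 16 fragments), 98.9 and 64.2 CPM in olig2 cells (325 and 271 fragments), and 24.5 and 19.7 CPM in dbx1b cells (136 and 140 fragments). Both olig2 libraries lay above the other 4, as for 8.17% of all genes tested, and the nkx2.2a libraries lay on both sides of the dbx1b libraries. The log2 fold change was 1.88 ± 0.92 (SE) in olig2 over dbx1b cells, with a 95% interval of -0.18 to 3.94 (edgeR unadjusted p = 0.0689, adjusted p = 0.546). It was -1.83 ± 0.91 in nkx2.2a over olig2 cells (edgeR unadjusted p = 0.0755, adjusted p = 0.602). Leaving out nkx2.2a library 1 made that last value -4.07, and leaving out library 2 made it -0.98.

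The 2 transcript models of snai2, of 3220 and 3209 bases, shared its fragments unevenly between libraries. The longer model took 59.1% and 68.8% in nkx2.2a cells, 60.9% and 32.5% in olig2 cells, and 55.1% and 45.0% in dbx1b cells. The exact 95% binomial intervals of the olig2 libraries, 55.4% to 66.3% and 26.9% to 38.4%, did not meet. The models differ by few bases in length, and reads common to both may have been assigned to either.

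The gene snai1b was low throughout. It had 4.26 and 0.302 CPM in nkx2.2a cells (27 and 1 fragments), 11.6 and 4.98 CPM in olig2 cells (38 and 21 fragments), and 5.76 and 11.0 CPM in dbx1b cells (32 and 78 fragments). Both nkx2.2a libraries lay below the other 4, as for 6.46% of all genes tested, and the olig2 and dbx1b libraries overlapped. The nkx2.2a over olig2 log2 fold change was -1.83 ± 1.56 (SE, edgeR adjusted p = 0.783), and the nkx2.2a over dbx1b value was -1.85 ± 1.56 (edgeR adjusted p = 0.933). Leaving out nkx2.2a library 2 made these values -0.94 and -0.98. Leaving out library 1 instead made them -4.71 and -4.73, which then rest on a single library with 1 fragment. The snai1b level is a sum over 3 transcript models of 1038, 1696 and 1851 bases. The longest, labelled as a non-coding RNA model (XR), took 58.4% of all snai1b fragments, and 47.4% to 100% by library. The shortest, a coding model (NM), had 0 to 18 fragments per library. How reads shared by these models were assigned is not stated.

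A Snail gene outside the 9, snai1a, which is active in paraxial mesoderm of zebrafish embryos, had the same order of sorts as foxd3, with no overlap. It had 24.3 and 19.1 CPM in nkx2.2a cells, 11.3 and 12.6 CPM in olig2 cells, and 175 and 95.4 CPM in dbx1b cells. Its log2 fold change was -2.64 ± 0.59 (SE) in nkx2.2a over dbx1b cells (edgeR unadjusted p = 0.00145). It was -3.50 ± 0.61 in olig2 over dbx1b cells (edgeR unadjusted p = 2.6e-04). Neither passed edgeR's test over all genes (edgeR adjusted p = 0.379 and 0.277). Of 6 tested AP-2, SoxE, Snail and FoxD genes outside the 9, DESeq2 called 0 higher and 1 lower in nkx2.2a over dbx1b cells (1.98% of all genes). It called 0 and 1 in olig2 over dbx1b cells (3.64%). The AP-2, SoxE, Snail and FoxD genes outside the 9, snai1a included (9 of 10 listed symbols), summed to 107 and 135 CPM in nkx2.2a cells, 90.4 and 105 CPM in olig2 cells, and 259 and 194 CPM in dbx1b cells. Without snai1a they summed to 82.4 and 116 CPM in nkx2.2a cells, 79.1 and 92.4 CPM in olig2 cells, and 83.7 and 98.7 CPM in dbx1b cells, and the 3 sorts overlapped. The 3 Snail genes thus had their highest libraries in different sorts or shared between them: snai1a in dbx1b, snai2 in olig2, and snai1b in olig2 library 1 and dbx1b library 2.

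**Figure D4:**
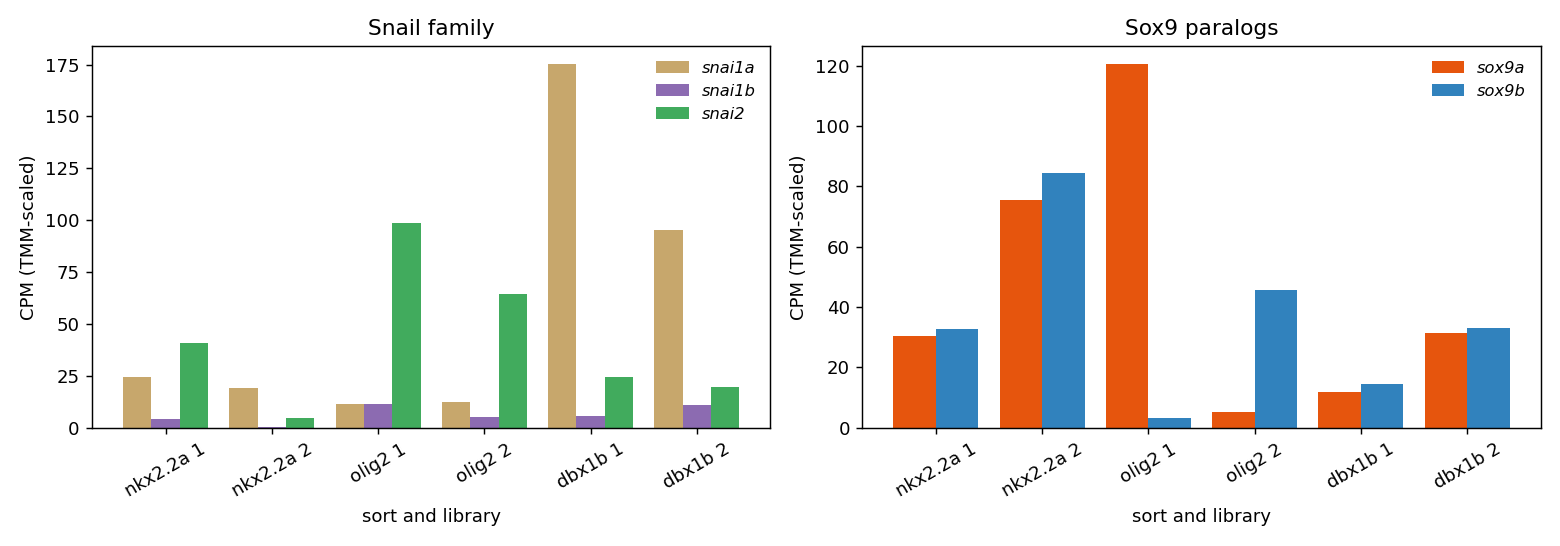
TMM-scaled CPM (vertical axes, starting at 0) of the Snail genes snai1a, snai1b and snai2, left, and of sox9a and sox9b, right, in each library of the nkx2.2a, olig2 and dbx1b sorts (horizontal axes). The gene snai1a is highest in dbx1b cells and snai2 in olig2 cells, and sox9a stands at 120 CPM in olig2 library 1 where sox9b stands at 3.35 CPM.

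The marker crestin labels premigratory and migrating crest in zebrafish embryos, and belongs to a family of repeated, retroelement-like sequences. It had 56.5 and 104.9 CPM in nkx2.2a cells (358 and 347 fragments), 103.8 and 74.4 CPM in olig2 cells (341 and 314 fragments), and 85.0 and 62.6 CPM in dbx1b cells (472 and 444 fragments). The sorts overlapped, and the highest library stood 1.86 times above the lowest, and 7.16% of genes with a mean of 5 CPM or more had a smaller ratio. The log2 fold changes were -0.14 in nkx2.2a over olig2 cells, 0.27 in olig2 over dbx1b cells and 0.13 in nkx2.2a over dbx1b cells, each with an SE of 0.51 (edgeR adjusted p = 0.969, 0.907 and 0.994). Their 95% intervals allowed differences from -1.30 to 1.43. The gene foxd3, also a premigratory marker, ranged over 18.9-fold in the same libraries. Reads from near-identical copies of crestin elsewhere in the genome could have been counted on it, so its level is uncertain as that of a single gene.

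Genes listed for the later crest network were mixed, some abundant and others near 0. Their summed level was 1631 and 1341 CPM in nkx2.2a cells, 2108 and 1692 CPM in olig2 cells, and 1858 and 1951 CPM in dbx1b cells. The gene id1 alone had 385 and 376, 696 and 800, and 587 and 464 CPM in the same order. Of 31 listed symbols, 30 were in the files and 24 were tested, and edgeR called 0 of them over all genes in any comparison. At an unadjusted p under 0.05, 3 were higher and 1 lower in nkx2.2a over olig2 cells (6.12% and 2.62% of all genes), 2 and 1 in nkx2.2a over dbx1b cells (3.61% and 2.67%), and 4 and 6 in olig2 over dbx1b cells (3.70% and 5.83%). DESeq2 called 0 and 0 (2.97% of all genes in either direction), 2 and 1 (1.98%), and 3 and 3 (3.64%). The list medians were 0.00, 0.16 and 0.04 in these comparisons. The homeobox gene dlx2a of cranial crest had 10.3 and 39.9 CPM in nkx2.2a cells and 6.39 and 25.6 CPM in olig2 cells, and 0 fragments in both dbx1b libraries, which allows up to 0.540 and 0.423 CPM. The helix-loop-helix inhibitor gene id3, a crest and neural progenitor gene, had 100 and 142 CPM in nkx2.2a cells, 55.7 and 23.2 CPM in olig2 cells, and 149 and 189 CPM in dbx1b cells. Of the genes used in pigment cells, some were at or near 0 and others were not. The melanin synthesis gene dct had 0 fragments in all 6 libraries, tyr had 0 to 5, and the melanocyte regulator gene mitfa 0 to 6. The receptor tyrosine kinase genes kita and ltk had 26 to 81 and 0 to 52 fragments.

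Genes whose levels most resembled those of a member over the 6 libraries were found by Pearson's correlation of log2 CPM among 9387 named genes with a mean of 5 CPM or more. With 6 libraries that share depth and sort, such values describe likeness only, and 26 to 326 genes exceeded 0.9 for each member. Closest to tfap2a were srprb (r = 0.982) and hmgn3 (0.972). Closest to tfap2c were rrp36 (0.993) and sepp1b (0.990), and to foxd3 cdc14ab (0.991) and tti1 (0.991). For sox9a they were arih1 (0.990) and lrtm2 (0.988), and for sox9b nip7 (0.990) and cnp (0.986). For snai1b they were ddx20 (0.991) and leng1 (0.990), for snai2 nhlh2 (0.991) and tmem69 (0.991), and for crestin tmem254 (0.982) and bud31 (0.970). Among these, nhlh2, a helix-loop-helix gene of early neurons, had 12.3 and 0 CPM in nkx2.2a cells, 59.3 and 34.4 CPM in olig2 cells, and 6.48 and 5.21 CPM in dbx1b cells, so it shared with snai2 the high olig2 libraries and the low nkx2.2a library 2.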

How the data were processed

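For each library the authors deposited raw counts, the number of reads mapped to each of 54437 transcripts. Every count was even, so both mates of a fragment were counted, and fragments are counts divided by 2. Bowtie 1.1.1, FastQC 0.11.3 and the GRCz10 build appear, with no role, in the submitters' processing notes. The sources used here do not give how strand or reads matching several transcripts were handled, so paralogs and repeated sequences are uncertain as single genes. Library sizes leave out unmapped reads, 66.6% to 80.6% of each library. The authors' deposited tables of FPKM and of log2 ratios were not used, and FPKM values were computed here from the counts and the transcript lengths given in the files.

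Counts were summed per symbol. Testing used edgeR 4.0.16 in R 4.3.3, with its quasi-likelihood F-test, filterByExpr (minimum count 10), TMM scaling, 1 mean per sort over all 6 libraries (3 residual degrees of freedom, biological coefficient of variation 0.883), Benjamini-Hochberg adjustment over 19129 symbols, threshold 0.05. The fit was run on simulated data for nkx2.2a over olig2 cells, with means and dispersions taken from these data. Differences were set only in genes at or above the median level, so the simulation cannot speak for genes of lower levels. Log2 CPM for likeness used a prior count of 2. DESeq2 1.42.0 and other settings were alternatives; the one on fragments, and list sums without named genes, were chosen after seeing the data. Between libraries of a sort, chi-square per degree of freedom was 39.6 to 45.4, above sampling noise. That is more than sequencing the same library again would give, but it does not show that the pools of cells were separate.

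The members and lists were chosen with earlier results of these data known. Named were the 9 members, the 3 driver genes, the 2 genes most like each member with a mean of 5 CPM or more (clone and LOC names left out; sox10 was below it), and up to 2 genes per list with the smallest p. The genes sox8a, dct, tyr, mitfa, kita, ltk, id1, col2a1a, tbx6, cdh1, cldnb, tp63 and agr1 were named after their values were seen.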

Additional observations from a re-analysis of the deposited data

How the results depend on the processing

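The 27 fold changes (9 genes in 3 comparisons) were recomputed under 15 other settings, giving 405 values. Of these, 382 kept their direction and stayed uncalled, 2 became calls and 21 changed sign. The 382 include values that could hardly differ. The filter of 1 CPM gave the main values again, and leaving out a library of the sort not compared barely touched a fold change. Both calls were DESeq2's in olig2 over dbx1b cells, for tfap2a and foxd3 (2 of 9 genes called, against 0 by edgeR). In 19 of the 27 the sign never changed, including every tfap2a, tfap2c and foxd3 value. Changes of sign without 1 library were as follows. In nkx2.2a over olig2 cells, sox9a became 0.28 without nkx2.2a library 1 and 3.33 without olig2 library 1 (range -1.18 to 3.33 over the 6 libraries left out), crestin 0.24 and 0.11 without the same libraries (-0.64 to 0.24), and sox10 -0.057 without olig2 library 1 (-0.057 to 0.28). In nkx2.2a over dbx1b cells, snai2 became -2.18 without nkx2.2a library 1 and -0.08 without dbx1b library 2 (-2.18 to 0.88), and crestin -0.39 without nkx2.2a library 2 and -0.06 without dbx1b library 2 (-0.39 to 0.52). In olig2 over dbx1b cells, sox9a became -2.06 without olig2 library 1 (-2.06 to 2.45), sox9b -2.86 without olig2 library 2 and -0.44 without dbx1b library 1 (-2.86 to 0.93), and snai1b 0.44 without olig2 library 2 and 0.53 without dbx1b library 2 (-0.76 to 0.53). The snai1b value in that comparison (-0.02) also became 0.038 with RLE scaling, 0.0032 with no composition scaling, 0.0014 on fragments, 0.038 with DESeq2 and 0.47 with transcripts as features. That last setting took the most counted transcript of each gene. The snai1b transcripts of 1038 and 1696 bases gave -0.54 and -0.70 there, the sign of the main value.

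Libraries of the same replicate number showed no shared shift: deviations of library 1 from its sort's mean correlated at -0.0142 to 0.0235 between sorts. Such values cannot show whether libraries of the same number were handled together. With the number as a replicate block, edgeR called 0 genes in nkx2.2a over olig2 cells, 1 in nkx2.2a over dbx1b cells and 3 in olig2 over dbx1b cells, against 0, 1 and 0 without it, and 0 of the 9 members. The block turned the sign of snai2 in nkx2.2a over dbx1b cells (-0.44) and of sox9b in olig2 over dbx1b cells (-0.62).

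Counts over all genes, in the same order of comparisons, were 233, 238 and 292 with no filter beyond 1 count and 569, 379 and 696 with DESeq2. In nkx2.2a over dbx1b cells the count was 0 with no composition scaling, 2 with only the 4 libraries compared and 0 with transcripts as features. In olig2 over dbx1b cells it was 2 on fragments. Leaving out 1 library gave 0 to 6, 0 to 65 and 0 to 7 genes, and 0 members in each case. The cause of these changes was not tested. A filter of 1 CPM left the same number of genes, 19129. Precision was limited by 2 libraries per sort and, for foxd3, sox10 and snai1b, by libraries with as few as 5, 5 and 1 fragments.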
